A study of Mus musculus with 6 samples.

Results

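Heme is assembled by a short chain of enzymes that begins and ends in the mitochondrion, and 7 genes of this chain were followed here in mouse brown adipocytes with and without the respiratory chain inhibitor rotenone. The genes, taken by symbol from the 26214 listed in each count file, were Alas1, Alad, Uros, Urod, Cpox, Ppox and Fech, and all 7 were measured in every library. The rule that picks them names genes of the pathway and uses no measured value. Other steps of the pathway were not analysed here.

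The cells were immortalized primary brown preadipocytes of the mouse, a cultured precursor of heat-producing fat cells. All were differentiated with insulin, the thyroid hormone T3, IBMX, dexamethasone and indomethacin, followed by insulin and T3. On day 7 they received 100 nM rotenone, which blocks complex I (NADH dehydrogenase), or the solvent DMSO alone for 16 h. RNA-seq was deposited as 3 libraries per group. The 3 rotenone files held identical counts, with 0 of 26214 genes differing. A difference of 0 is below sampling noise, and the files entered as 1 sample. The comparison therefore set 1 rotenone library against 3 DMSO libraries, and every estimate of spread came from DMSO.

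Heme synthesis starts in the mitochondrial matrix, where ALAS1 joins glycine to succinyl-CoA, a step known to set the rate outside red blood cells. The intermediates then pass through cytosolic enzymes, return to the mitochondrion, and end at ferrochelatase, which places ferrous iron in the porphyrin ring. Brown adipocytes are rich in mitochondria and need heme for the cytochromes of complexes II, III and IV and for cytochrome c.

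Most of the pathway's transcripts did not pass the test for a change in the rotenone library. Alas1, the entry enzyme, rose by 21.4%, and Urod, which encodes uroporphyrinogen decarboxylase, fell by 29.6%. The other members, Alad, Uros, Cpox, Ppox and Fech, did not pass the test. With edgeR's quasi-likelihood test and a Benjamini-Hochberg adjusted p under 0.05, 1 of the 7 genes was higher and 1 was lower. Over all 14709 genes tested, 56.1% passed the same rule, 27.6% as higher and 28.5% as lower. The share of members called was thus not above the share over all genes.

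The promoters of both called genes are shown for the transcription factor motifs searched in them, with the matched letters in capitals and the rest in lower case. Sequences are those of RefSeq on GRCm38.p6, read 5′ to 3′ on the minus strand, from 250 bases before to 50 bases after an annotated start site. The Alas1 window is chr9:106247681-106247980, and its capitals mark overlapping matches on both strands to GCGCATG, core letters of the site of nuclear respiratory factor 1 (NRF1). The Urod window is chr4:116994364-116994663, and its capitals mark the E-box CACGTG, a palindrome bound by bHLH factors, and after it 3 matches to the GC box GGGCGG, the first of them on the opposite strand and so read as CCGCCC.
Alas1: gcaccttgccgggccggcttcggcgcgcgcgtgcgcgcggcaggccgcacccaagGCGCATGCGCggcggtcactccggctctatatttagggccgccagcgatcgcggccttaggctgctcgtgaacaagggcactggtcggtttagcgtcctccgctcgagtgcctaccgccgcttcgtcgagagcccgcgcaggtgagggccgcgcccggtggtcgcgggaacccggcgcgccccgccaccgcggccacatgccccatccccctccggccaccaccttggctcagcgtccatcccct
Urod: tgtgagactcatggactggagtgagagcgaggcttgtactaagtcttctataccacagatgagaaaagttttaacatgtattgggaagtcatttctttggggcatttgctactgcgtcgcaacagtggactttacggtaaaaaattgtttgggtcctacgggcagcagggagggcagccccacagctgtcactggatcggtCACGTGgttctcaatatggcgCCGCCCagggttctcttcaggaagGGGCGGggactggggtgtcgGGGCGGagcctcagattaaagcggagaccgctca

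RefSeq gave promoter windows for 6 of the 7 genes, 9 windows in all; Fech had no entry. Motifs were searched on both strands, and matches of different motifs could overlap. The NRF1 letters, chosen with these windows in view, occurred in 2 of the 9 windows, against 3.91% of all 32851 promoter windows. Both windows belong to 1 gene, Alas1. Its pair of matches lay inside both of its overlapping windows, beginning 195 and 192 bases before the start site of the one shown. Counted from the start site of the other window, the same matches began downstream of it, at bases 30 and 33. The E-box occurred in 4 of the 9 windows, against 7.15% of all windows. These matches were at 4 positions in 3 genes, Alad, Uros and Urod, and the Urod match began 49 bases before the start site. The GC box, a site of Sp1 and related factors, was found in 6 of the 9 windows, against 35.7% of all windows. None of the 9 windows held AGGTCA, the core site of nuclear receptors (16.3% of all windows), TGACNNNGC, the core of the antioxidant response element (12.4%), or TGATGNAA, the composite element read by ATF4 (3.97%). These matches describe letters in these windows and do not show binding.

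Levels were expressed as CPM, read counts relative to library sizes scaled by the TMM method. Alas1 stood at 288.5, 297 and 279.2 CPM in DMSO replicates 1, 2 and 3 and at 349.9 CPM in the rotenone library, which was above all DMSO libraries. Its log2 fold change was 0.28 ± 0.07 (SE), with a 95% interval of 0.14 to 0.42 and an edgeR Benjamini-Hochberg adjusted p of 0.0012. With library size scaling the log2 fold change was 0.16 and passed only narrowly. The gene lies on chromosome 9 from 106233455 to 106248654 on the minus strand (GENCODE M21 on GRCm38).

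Alad encodes the cytosolic dehydratase that condenses pairs of ALAS1 products into a pyrrole. It stood at 50.11, 54.72 and 53.61 CPM in the DMSO libraries and at 59.22 CPM with rotenone. The rotenone library was the highest of the 4, and the log2 fold change of 0.17 ± 0.09 (SE) had a 95% interval of -0.02 to 0.35. It did not pass, with an edgeR Benjamini-Hochberg adjusted p of 0.12. With library size scaling the log2 fold change was 0.05, and the rotenone library (55.62 CPM) fell within the DMSO range (50.83 to 56.05 CPM); after a correction for transcript length it was 0.004.

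Uros encodes the synthase that closes the tetrapyrrole ring in the right isomer. It was among the least abundant members, at 15.87, 11.91 and 12.69 CPM in DMSO and 11.13 CPM with rotenone. DMSO replicate 1 stood above the other DMSO libraries, while the rotenone library was the lowest of the 4. The log2 fold change of -0.28 ± 0.18 (SE) had a 95% interval of -0.67 to 0.11, and without DMSO replicate 1 it was -0.14. It did not pass, with an edgeR Benjamini-Hochberg adjusted p of 0.21.

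Urod encodes the cytosolic decarboxylase that turns uroporphyrinogen into coproporphyrinogen, the form that re-enters the mitochondrion. It stood at 66.79, 70.82 and 67.39 CPM in DMSO and at 48.13 CPM in the rotenone library, well below all DMSO libraries. The log2 fold change was -0.51 ± 0.09 (SE), with a 95% interval of -0.69 to -0.32, and the edgeR Benjamini-Hochberg adjusted p was 6.2e-05. The gene lies on chromosome 4 from 116989965 to 116994413 on the minus strand.

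The last members encode the mitochondrial steps. Cpox, coproporphyrinogen oxidase of the intermembrane space, stood at 24.31, 21.25 and 23.92 CPM in DMSO and 24.73 CPM with rotenone. Ppox, protoporphyrinogen oxidase of the inner membrane, stood at 43.02, 41.57 and 43.58 CPM in DMSO and 42.07 CPM with rotenone. On this scale Ppox was the only member whose rotenone value lay within the DMSO range, and Cpox was barely above its own. Their log2 fold changes were 0.09 ± 0.13 (SE; 95% interval -0.17 to 0.36) and -0.02 ± 0.10 (SE; 95% interval -0.23 to 0.18), and both failed the test. Cpox changed sign with library size scaling (-0.025).

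Fech, ferrochelatase, stood at 97.35, 93.8 and 88.46 CPM in DMSO and at 84.05 CPM with rotenone. The rotenone library was the lowest of the 4, and the log2 fold change of -0.15 ± 0.08 (SE) had a 95% interval of -0.32 to 0.02. It did not pass here, with an edgeR Benjamini-Hochberg adjusted p of 0.12, but did with upper quartile scaling (-0.19, edgeR adjusted p = 0.046) and with library size scaling (-0.27, edgeR adjusted p = 0.0071). After a correction for transcript length its value turned to 0.13. Rotenone lay outside the DMSO range for 6 of the 7 genes, above it for Alas1, Alad and Cpox and below it for Uros, Urod and Fech. With library size scaling 1 gene, Alas1, lay above the range and 4, Uros, Urod, Ppox and Fech, lay below it. On the TMM scale 86.2% of all genes tested lay outside the range, 41.5% above and 44.7% below.

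**Figure D1:**
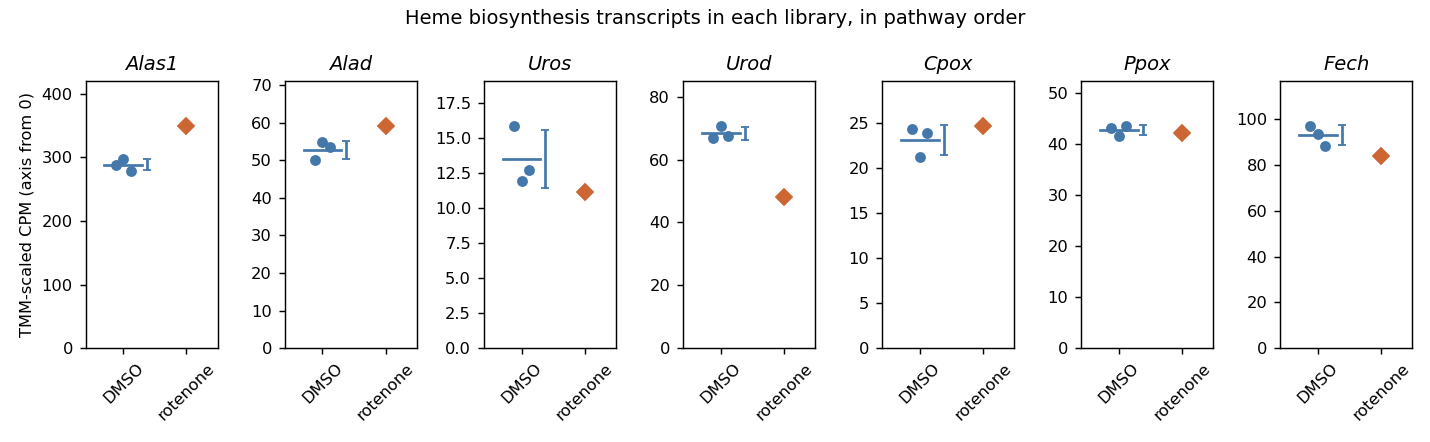
TMM-scaled CPM of the 7 heme biosynthesis genes, in pathway order, each axis starting at 0. Blue points are the 3 DMSO libraries with their mean (line) and SD (bar), and the orange diamond is the rotenone library; Alas1 is visibly higher (349.9 CPM) and Urod lower (48.13 CPM) than all DMSO libraries, while Ppox lies among them.

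Spread under rotenone could not be measured, and the calls take it to equal the spread of the DMSO libraries, estimated for each gene. The biological coefficient of variation common to all genes was 6.9%. When a coefficient of variation of 20% was assumed for every gene instead, 0 of the 7 genes passed the adjusted threshold in either direction. Over all genes 23.6% passed it (9.57% higher and 14.0% lower). At an unadjusted p under 0.05 also 0 of the 7 passed, a threshold at which all genes were not counted. The edgeR Benjamini-Hochberg adjusted p was 0.58 for Alas1 and 0.3 for Urod. With the spread estimated from DMSO, DESeq2 and limma-voom also called both genes and no other member.

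The members' changes were small in size. Their absolute log2 fold changes had a median of 0.17, compared with 0.51 over all genes tested and 0.39 over the 8441 genes whose DMSO level lay between those of the lowest and the highest member. In that range of levels 66.5% of genes passed the test. Urod, the member that changed most, was exceeded in absolute size by 7348 of the 14709 genes. The median of the 7 signed log2 fold changes was -0.02, beside -0.04 over all genes. The 95% intervals of the 7 together ran from -0.69 to 0.42 on the log2 scale, so under the spread seen in DMSO none reached a 2-fold change.

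**Figure D2:**
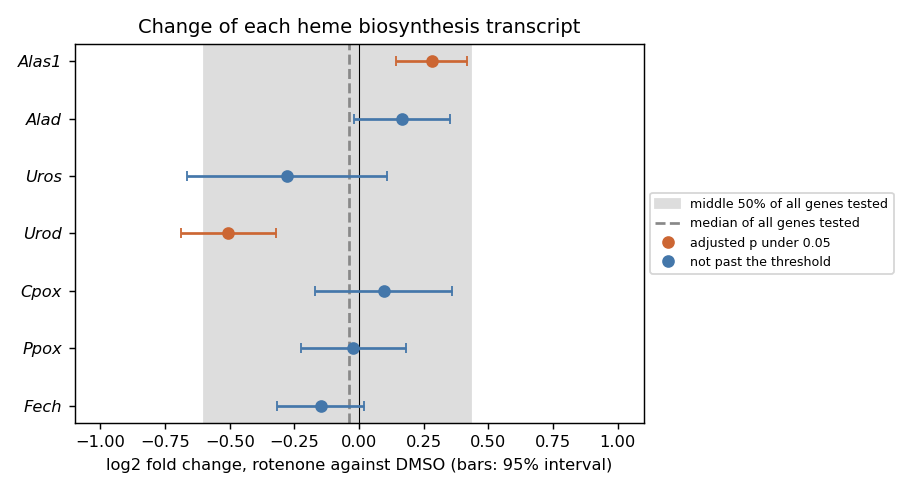
Log2 fold change of each heme biosynthesis gene, rotenone against DMSO, with its 95% interval; orange marks an edgeR adjusted p under 0.05. The grey band spans the 25th to the 75th percentile of all genes tested (-0.60 to 0.43) and holds all 7 estimates, from -0.51 for Urod to 0.28 for Alas1.

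The balance between the members shifted in the rotenone library. Summed over the 7 genes, the level was 586, 591.1 and 568.9 CPM in DMSO and 619.2 CPM with rotenone. Without Alas1 the remaining genes summed to 297.5, 294.1 and 289.6 CPM in DMSO and 269.3 CPM with rotenone. On this scale the sum was highest in the rotenone library with Alas1 and lowest without it. With library size scaling the order of the first sum turned: the 7 genes summed to 594.4, 605.4 and 582.5 CPM in DMSO and 581.6 CPM with rotenone, the lowest of the 4, while the sum without Alas1 stayed lowest with rotenone (253 CPM against 296.6 to 301.7 CPM). Alas1 made up 49.2%, 50.2% and 49.1% of the summed CPM in DMSO and 56.5% with rotenone, and its CPM was 4.32, 4.19 and 4.14 times that of Urod in DMSO and 7.27 times with rotenone. Both ratios were chosen after the values were seen and carry no test.

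Levels can be ranked between genes only per length of transcript. As CPM per kilobase of the longest annotated protein-coding transcript, the DMSO levels were 84.8 ± 2.6 for Alas1, 45.9 ± 1.5 for Urod, 42.4 ± 1.9 for Alad, 23.5 ± 0.57 for Ppox, 14.2 ± 0.68 for Fech, 7.66 ± 1.2 for Uros and 7.48 ± 0.54 for Cpox (SD, n = 3). On the longest transcripts Uros and Cpox overlapped between libraries, whereas Urod and Alad did not, although they were close. Both statements depend on the transcript taken. On the shortest form with at least 90% of the longest coding sequence, the DMSO means would be 43.8 for Alad and 9.10 for Uros. Those of Urod and Cpox would not change. In the rotenone library the order of Urod and Alad was exchanged, at 32.3 and 47.5 CPM per kilobase, and so was that of Uros and Cpox, at 6.32 and 7.99. Fech's place is also uncertain, because its protein-coding transcripts run from 1753 to 6571 nt among those with at least 90% of the longest coding sequence. On the shorter form its DMSO level would be 53.2 CPM per kilobase, second to Alas1.

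Antisense neighbours limit what can be said of some members, the called gene Alas1 among them, since the sources used here do not state whether counting used strand. The antisense gene 4930500F10Rik overlaps Alas1 by 695 bp on the opposite strand, and its level was not analysed here. Bccip overlaps Uros by 740 bp and B4galt3 overlaps Ppox by 907 bp, both on the opposite strand. Bccip rose by 0.72 ± 0.12 (log2 fold change ± SE) and B4galt3 by 0.80 ± 0.14. Gpr15, which overlaps Cpox by 204 bp, had at most 6 counts in any library.

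Among 10876 other genes averaging 5 CPM or more, Psmc3, Uqcrc1 and Fbxw4 had the log2 profiles nearest to that of Alas1 over the 4 libraries, with Euclidean distances of 0.01, 0.02 and 0.02. Psmc3 encodes a proteasome ATPase and Uqcrc1 a core subunit of complex III. Their log2 fold changes were 0.28, 0.29 and 0.29 for Psmc3, Uqcrc1 and Fbxw4. Likeness over 4 libraries is a description of these libraries.

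Many genes that feed or serve the pathway were higher with rotenone. Of 16 genes for substrate supply and mitochondrial transport, 11 rose, 2 fell and 3 did not pass, with a median log2 fold change of 0.38 (0.26 with library size scaling). Over all genes tested 27.6% were called higher and 28.5% lower. The counts of this list and of those below are to be read beside these shares and carry no test. Both mitoferrins, which bring iron into the mitochondrion, rose: Slc25a37 went from 47.38, 45.69 and 51.25 CPM to 83.11 CPM, and Slc25a28 from 43.9, 53.27 and 47.21 CPM to 84.1 CPM. Every DMSO library lay well below the rotenone value for both genes, with log2 fold changes of 0.79 ± 0.09 and 0.81 ± 0.10 (SE).

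Slc25a39, a mitochondrial glutathione carrier, rose by 0.64 ± 0.07 (log2 fold change ± SE), and Tmem14c, which is needed for porphyrin import in red cell precursors, rose by 0.71 ± 0.07. Ogdh, a subunit of the complex that makes succinyl-CoA, rose by 0.74 ± 0.07. Pgrmc2, a heme chaperone known from mouse brown fat for carrying heme to the nucleus, stood at 225.9, 230 and 235.8 CPM in DMSO and at 456.3 CPM with rotenone, a log2 fold change of 0.99 ± 0.06. It was the only gene of this list that also passed with a 20% coefficient of variation.

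Among the other genes of this list some rose and some fell. Abcb6, a porphyrin transporter, rose by 0.35 ± 0.09 (log2 fold change ± SE), Tspo, a porphyrin-binding protein of the outer membrane, by 0.29 ± 0.07 and Pgrmc1, which binds ferrochelatase, by 0.24 ± 0.07. The Tspo call was lost after the correction for transcript length (0.03), and the Pgrmc1 call with library size scaling (0.12). Slc25a38, the glycine carrier, gave 0.36 ± 0.20 and did not pass. Those that fell were Fam210b, known from red cell precursors for iron import, by 0.86 ± 0.12 and Abcb10, a partner of mitoferrin 1, by 0.34 ± 0.13, a call that was lost in 5 of 12 alternatives.

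Genes that govern the turnover of ALAS1 protein moved in both directions. Clpx, an unfoldase that helps activate and degrade ALAS1, stood at 108.8, 103.1 and 102.6 CPM in DMSO and at 56.76 CPM with rotenone, a log2 fold change of -0.89 ± 0.08 (SE). Its peptidase partner Clpp rose by 0.49 ± 0.07, and Lonp1, a matrix protease that degrades ALAS1 when heme is plentiful, fell by 0.29 ± 0.06. None of these 3 calls held with a 20% coefficient of variation.

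Calls among the genes of heme breakdown depended on the processing. Hmox1, the inducible heme oxygenase, varied widely in DMSO, at 1219, 1473 and 1575 CPM, and stood at 1140 CPM with rotenone. The rotenone library was the lowest of the 4, but the log2 fold change of -0.32 ± 0.15 (SE) did not pass (edgeR adjusted p = 0.14). Hmox1 did pass as lower in 4 of 12 alternatives, with no filter on low counts (-0.32), without DMSO replicate 1 (-0.41), without DMSO replicate 3 (-0.24) and after the length correction (-0.48), with adjusted p from 7.3e-12 to 0.54 over all 12. Hmox2, the constitutive form, gave -0.11 ± 0.08. The biliverdin reductases Blvra and Blvrb rose by 0.24 ± 0.10 and 0.23 ± 0.09, but their calls were lost in 7 and 6 of 12 alternatives, library size scaling among them. Of these 4 genes 2 rose and 0 fell, while with library size scaling 0 rose and 1, Hmox2, fell, and the median of 0.06 turned to -0.06. After the length correction 0 rose and 2, Hmox1 and Hmox2, fell.

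Among 8 genes that move or bind heme outside the synthetic chain, 1 rose and 3 fell. Flvcr1, which encodes an exporter long tied to heme and now also to choline, stood at 9.793, 11.21 and 9.247 CPM in DMSO and 24.49 CPM with rotenone, a log2 fold change of 1.28 ± 0.15 (SE). Slc46a1, a folate transporter with some heme transport, gave -1.51 ± 0.29. Gapdh, a glycolytic enzyme that also carries heme to other proteins, gave -1.42 ± 0.07, and these 3 calls held with a 20% coefficient of variation. Slc48a1, which carries heme out of lysosomes, fell by 0.19 ± 0.07, a call that did not hold in 5 of 12 alternatives.

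Steps that use heme for the respiratory chain were split. Cox10, the first enzyme of heme A synthesis, rose by 0.48 ± 0.13 (log2 fold change ± SE), while Cox15, the next enzyme, fell by 0.59 ± 0.10. Cox15 went from 59.4, 60.92 and 54.32 CPM in DMSO to 38.72 CPM. The ferredoxin Fdx2 and the reductase Fdxr, which pass electrons to COX15, rose by 0.97 ± 0.11 and 0.49 ± 0.14. Hccs, which attaches heme to cytochromes c and c1, gave 0.14 ± 0.09 and did not pass. Of the 5 genes in this list 3 rose and 1 fell, and with a 20% coefficient of variation Fdx2 alone passed.

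Of 7 genes for respiratory proteins with heme or heme partners, 6 rose and 1 fell, but 3 rose with library size scaling and 0 passed with a 20% coefficient of variation. Cycs and Cyc1, for cytochromes c and c1, rose by 0.57 ± 0.06 and 0.53 ± 0.06 (log2 fold change ± SE), and Sdhd, an anchor of complex II, fell by 0.37 ± 0.07. Among 14 tested of 18 other enzymes with heme, or with a cytochrome b5 domain or partner, 3 rose and 2 fell, and the median of 0.07 turned to -0.05 with library size scaling. Ptgs1, a prostaglandin synthase, rose by 1.44 ± 0.17, from 8.037, 6.819 and 6.926 CPM to 19.76 CPM. Nos3 fell by 1.40 ± 0.29, Ptges2 rose by 0.54 ± 0.07, and catalase (Cat) gave 0.01 ± 0.06. With a 20% coefficient of variation the calls for Ptgs1 and Nos3 held and that for Ptges2 did not.

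**Figure D3:**
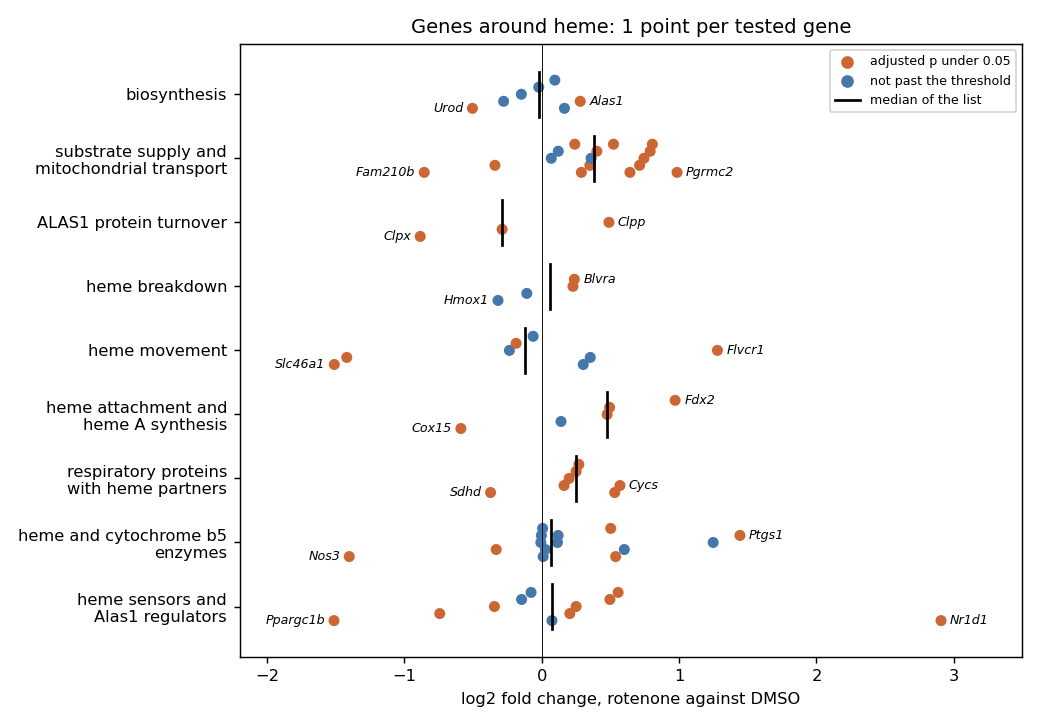
Log2 fold change, rotenone against DMSO, of every tested gene in the lists around heme, 1 point per gene and a black line at each list's median. Biosynthesis genes lie between -0.51 and 0.28. The lists of heme movement, of heme and cytochrome b5 enzymes and of heme sensors hold members beyond 1 in either direction, such as Flvcr1, Ptgs1 and Ppargc1b. The remaining lists stay within 1, as biosynthesis does. Labels name the lowest and highest gene of each list.

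Transcripts of heme sensors and of regulators of Alas1 included the gene that changed most around the pathway. Nr1d1, which encodes the heme-binding clock repressor REV-ERB alpha, stood at 67.03, 72.34 and 77.53 CPM in DMSO and at 542 CPM with rotenone. All DMSO libraries lay far below the rotenone value, and the related Nr1d2 rose by 0.56 ± 0.08 (log2 fold change ± SE). Ppargc1b, a coactivator of mitochondrial genes, stood at 250, 236.3 and 219.5 CPM in DMSO and at 82.42 CPM with rotenone, a log2 fold change of -1.51 ± 0.08. Its relative Ppargc1a, a known inducer of Alas1 in mouse liver, gave -0.08 ± 0.09 and did not pass.

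Foxo1, which acts with PGC-1 alpha on Alas1 in liver, fell by 0.74 ± 0.09 (log2 fold change ± SE). Nrf1, which encodes nuclear respiratory factor 1, rose by 0.50 ± 0.10, and whether it acts on Alas1 here was not tested. Bach1, a repressor released from DNA by heme, gave 0.07 ± 0.11. Eif2ak1, the heme-regulated eIF2 alpha kinase, fell by 0.35 ± 0.10. Of 11 genes tested in this list 5 rose and 3 fell, 3 rose with library size scaling, and 1 rose and 1 fell with a 20% coefficient of variation.

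Markers of cell types were measured in the same libraries. Adipoq, the adiponectin gene, stood at 1111 to 1264 CPM in DMSO and the brown fat marker Ucp1 at 54.73 to 74.29 CPM, so defining markers of the labelled cell type were detected. With rotenone Ucp1, the uncoupling protein of brown fat, stood at 18.52 CPM, a log2 fold change of -1.86 ± 0.22 (SE), and Prdm16, a regulator of brown fat identity, fell by 2.13 ± 0.14. Elovl3 and Cox8b rose by 0.60 ± 0.11 and 0.30 ± 0.10 (log2 fold change ± SE), so that of 6 brown adipocyte markers 2 rose, 2 fell and 2 did not pass, and their summed level was 883 to 1022 CPM in DMSO and 866 CPM with rotenone. The Ucp1 and Prdm16 calls held with a 20% coefficient of variation and those of Elovl3 and Cox8b did not.

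Of 8 general adipocyte markers 1 rose and 5 fell. Cebpa, a master regulator of fat cell differentiation, stood at 583.8, 554.9 and 536.3 CPM in DMSO and 112.4 CPM with rotenone, and Lipe, hormone-sensitive lipase, stood at 907.9, 947.8 and 877.6 CPM in DMSO and 247.5 CPM with rotenone. Both lay far below all DMSO libraries, with log2 fold changes of -2.31 ± 0.08 and -1.88 ± 0.07 (SE), and both calls held with a 20% coefficient of variation. The summed level of the list was 11564 to 12691 CPM in DMSO and 11288 CPM with rotenone, a sum to which Fabp4 (5306 CPM with rotenone, not called) and Lpl (3110 CPM, which rose by 0.53 on the log2 scale) gave the most. The 8 markers of preadipocytes and fibroblasts included 5 that rose (Dlk1, Thy1, Col1a1, Col3a1 and Acta2) and 1 that fell. Their summed level was 1292 to 1446 CPM in DMSO and 3646 CPM with rotenone. Most of that rise came from Col1a1 (826.6 to 958.9 CPM in DMSO, 2121 CPM with rotenone) and Acta2 (145.3 to 163.2 CPM, 852.1 CPM). Pdgfra fell by 1.11 ± 0.16 (log2 fold change ± SE), and Ly6a and Cd34 did not pass. Fewer cells of a type and less RNA per cell cannot be told apart in bulk RNA, and the part of these shifts in the changes of Alas1 and Urod was not tested.

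Red cell precursors make heme with their own form of the entry enzyme. Of 9 erythroid markers, 3 were at 0 in every library (Hbb-bs, Hbb-bt and Slc4a1), and the list summed to 1.92 to 2.35 CPM in DMSO and 1.03 CPM with rotenone. Alas2, the erythroid counterpart of Alas1, had 6, 17 and 23 counts in DMSO and 17 with rotenone and did not pass. Klf1 was the only marker of this list called. It had 27, 38 and 26 counts in DMSO and 1 with rotenone, a log2 fold change of -4.31 ± 1.12 (SE), and the call held in all 12 alternatives. Epor had 22, 12 and 5 counts in DMSO and 1 with rotenone, and passed as lower with a 20% coefficient of variation but not as reported here. Of 5 macrophage markers 3 were at 0 in every library (Adgre1, C1qa and Ptprc), while Cd68 rose by 2.38 ± 0.23 on the log2 scale.

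Library facts that touch these values are few. Total counts were 26085061 to 29194179 in DMSO and 21611589 in the rotenone library, and members had between 226 and 8581 counts in a library. The smallest value, that of Uros with rotenone, therefore carried the most counting error. The rotenone library also favoured short transcripts, with a median log2 fold change of 0.25 in the shortest of 10 equal groups of genes by length and -0.28 in the longest, and its Rn45s ribosomal RNA share was 3.91% against 2.51% to 3.17% in DMSO. With library size scaling the median of all genes moved from -0.04 to -0.16. On that scale Alas1 (0.16) and Urod (-0.63) kept their directions, as they did after the length correction (0.34 and -0.67). The correction took the longest transcript of each gene. For Alas1 this has 3399 nt, in a length group with a median of -0.065. A shorter Alas1 form of 2129 nt lies in a group with a median of 0.032, and the correction was not run with it.

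**Figure D4:**
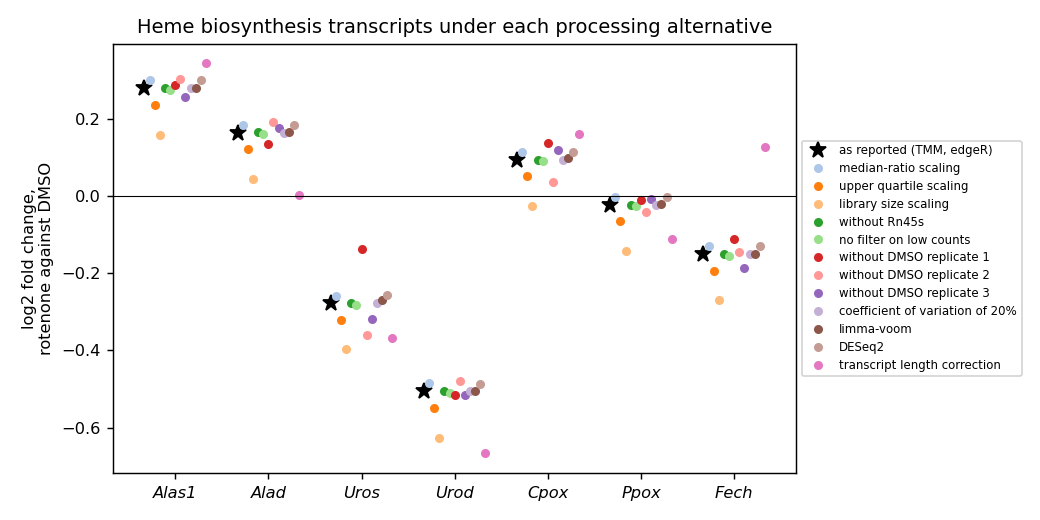
Log2 fold change of each heme biosynthesis gene as reported (star) and under 12 processing alternatives (points). Alas1 stayed between 0.16 and 0.34 and Urod between -0.67 and -0.48, whereas Cpox and Fech each crossed 0 under 1 alternative.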

How the data were processed

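The files deposited by the authors hold raw, whole-number read counts for 26214 gene symbols. TopHat2 and mouse build mm10 are named in the submitters' processing notes; the sources used here do not give the counting program, annotation or strand setting. Identical rotenone files entered once. Replicates are called independent in the labels, but nothing says they were separate cultures, so the spread behind the p-values may be technical.

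Counts were filtered with filterByExpr, scaled by TMM and tested with edgeR 4.0.16 (R 4.3.3; robust quasi-likelihood F test, 2 residual degrees of freedom). Benjamini-Hochberg adjustment ran over all 14709 genes tested, with a threshold of 0.05. The SE is the log2 fold change divided by the square root of F, and intervals are 95% intervals on that SE. On simulated counts with 14402 genes tested, the test recovered 68.7% of true 1.5-fold changes, 91% of 2-fold and 100% of 4-fold changes, and 9 of 182 calls were false. The simulation gave every gene the same spread, in the rotenone library too, and changed far fewer genes than were called in the data. Its rates hold for those settings and do not measure the error of the calls reported here. Alternatives were other scalings, no filter, leaving out each DMSO library or Rn45s, limma-voom (limma 3.58.1), DESeq2 1.42.0, a 20% coefficient of variation, and a correction by the median of transcript length deciles (GENCODE M21; 14216 genes).

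The members and gene lists were chosen with earlier results of these data known. Named genes are all members, a fixed set around heme and the 3 profiles nearest to Alas1. In each list up to 3 further called genes with the largest log2 fold changes were taken. Overlapping genes were added after their values were seen, as were Adipoq, Cat and further markers of cell types. A few genes of the rule and lists are not reported here. Intervals and counts cover no error beyond the spread between the DMSO libraries.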

Additional observations from a re-analysis of the deposited data

How the results depend on the processing

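Over 12 alternatives and 7 genes, 78 of 84 values kept their direction and their side of the threshold. With a 20% coefficient of variation the calls for Alas1 and Urod were lost, 0 members were called higher and 0 lower, and over all genes 1408 were higher and 2063 lower, against 4054 and 4197 at the estimated spread. With upper quartile and with library size scaling Fech also passed, so that 2 members were lower. Cpox turned to -0.025 with library size scaling, and Fech to 0.13 after the length correction; whether the longest Fech transcript is the one expressed here was not tested. Leaving out single DMSO libraries changed no call among the 7 genes. No paired analysis was possible because the rotenone files hold 1 distinct library. All members had at least 226 counts in every library, and 1 rotenone library leaves the spread under rotenone unmeasured.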
